A study of Mus musculus with 38 samples.

Results

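The genes described here are 10 parts of the mouse circadian clock: the activators Arntl, Clock and Npas2, the repressors Per1, Per2, Per3 and Nr1d1, and the output transcription factors Dbp, Tef and Hlf. They were taken by gene symbol from the 4 deposited expression tables of a study of the splicing factor SRSF2 in mouse skin. Each table listed 49585 genes, and all 10 were found and passed the filter on low levels in all 4. The members were selected on their levels and differences between groups in these same tables, so the levels and differences of the 10 genes are given as a description and without p-values.

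The study sequenced RNA from 38 mouse samples. In the knockout set, whole back skin came from Cre-positive mice carrying Krt14CreER, a tamoxifen-inducible Cre driven by the keratin 14 promoter of basal keratinocytes, with SRSF2 knocked out for 4 days (n = 3), 10 days (n = 3) or 12 days (n = 3), and from 3 Cre-negative controls. Of these controls, 2 had been treated for 12 days and 1 for 10 days. None of the 3 comparisons is therefore fully matched in the length of treatment, the 4-day one least, and all 3 share the same control mice. The number of tdTomato reporter alleles was mixed in the controls and at 4 and 10 days, whereas all 3 mice at 12 days were heterozygous. In the P95H set, whole back skin came from Cre-positive mice carrying SRSF2 P95H, a proline-to-histidine substitution known from myeloid cancers, at 12 days (n = 2) and 28 days (n = 4), and from Cre-negative controls at 12 days (n = 5) and 28 days (n = 3), all wild type for tdTomato. Topical 4-hydroxytamoxifen was given every other day to both genotypes of both sets, so the controls carry the drug but not the recombination. The other 2 tables held reporter-positive cells sorted from back skin: control and SRSF2-KO cells at 10 days (n = 3 each), and control and heterozygous SRSF2-P95H cells from mice given 3 tamoxifen injections and the carcinogen protocol DMBA/TPA, at 20 weeks (n = 3 each). The sources used here do not give the Cre status of the sorted controls, the age and sex of the mice or the time of day at which tissue was taken. Expression of the clock genes depends on the time of day, and its part in each difference below was not tested.

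The mammalian clock is a feedback loop of transcription. ARNTL, also called BMAL1, pairs with CLOCK or its paralogue NPAS2 and binds E-box motifs in the genes of its own repressors, the PER and CRY proteins, and in Nr1d1 and Dbp. NR1D1, or REV-ERB alpha, represses Arntl through ROR response elements, and DBP, TEF and HLF are related bZIP factors that activate genes with D-box motifs, Per genes among them. In skin the loop is known to run in keratinocytes, hair follicles and dermal cells, and Arntl and the E-box targets peak at opposite times of day.

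The promoters below are shown because they carry the motifs through which members of this loop act on each other. The 250 bases before each annotated start in RefSeq (GRCm38.p6) were searched on both strands for the E-box CACGTG, the E-prime box CACGTT, the D-box TTATGTAA or TTACGTAA, and the ROR element, AANT followed by AGGTCA or GGGTCA. None of these motifs overlapped another in the members' windows. Of the 10 genes, 9 matched with 14 windows in all, and Per2 had no entry. The Per1 window on chromosome 11 (chr11:69098699-69098947, plus strand) held 1 E-box, the Per3 window on chromosome 4 (chr4:151044666-151044915, minus strand) held 2 D-boxes, the Nr1d1 window on chromosome 11 (chr11:98775378-98775627, minus strand) held 1 E-prime box, read as AACGTG on the gene's strand, and the second Tef window on chromosome 15 (chr15:81811164-81811413, plus strand) held 1 E-box. Each is printed 5′ to 3′ on the gene's strand with the motif in capitals, and the Per1 window leaves out 1 base before the start that lies in an annotated exon.
Per1: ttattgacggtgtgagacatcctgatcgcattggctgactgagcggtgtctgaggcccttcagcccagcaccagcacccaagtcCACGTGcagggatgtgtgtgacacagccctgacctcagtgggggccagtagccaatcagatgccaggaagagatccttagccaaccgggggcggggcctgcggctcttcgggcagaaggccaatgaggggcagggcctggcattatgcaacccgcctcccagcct
Per3: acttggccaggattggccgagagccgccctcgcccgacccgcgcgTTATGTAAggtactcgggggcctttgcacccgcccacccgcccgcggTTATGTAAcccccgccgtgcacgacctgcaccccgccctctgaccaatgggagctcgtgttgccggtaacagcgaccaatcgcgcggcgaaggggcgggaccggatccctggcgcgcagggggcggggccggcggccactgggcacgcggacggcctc
Nr1d1: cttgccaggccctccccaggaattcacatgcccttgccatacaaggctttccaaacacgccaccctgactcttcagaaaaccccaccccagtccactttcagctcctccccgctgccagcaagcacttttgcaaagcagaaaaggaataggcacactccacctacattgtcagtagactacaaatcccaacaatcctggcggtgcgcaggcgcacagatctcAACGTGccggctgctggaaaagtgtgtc
Tef: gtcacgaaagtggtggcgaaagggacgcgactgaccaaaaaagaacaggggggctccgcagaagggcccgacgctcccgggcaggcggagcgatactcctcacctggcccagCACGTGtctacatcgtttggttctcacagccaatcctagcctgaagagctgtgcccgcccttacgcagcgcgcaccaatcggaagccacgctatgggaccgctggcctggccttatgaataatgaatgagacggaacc
The E-box in Per1 lay at bases -166 to -161 from the start, and that of Tef at -138 to -133. The D-boxes of Per3 lay at -205 to -198 and at -158 to -151, and the E-prime box of Nr1d1 at -28 to -23. Among 32851 mouse promoter windows of the same length, 6.02% held the E-box, 3.85% the E-prime box, 0.931% a D-box and 0.350% a ROR element. The first Tef window, which lies inside annotated exons and is not printed, also held an E-box. The windows of Arntl, Clock, Npas2, Dbp and Hlf and the second Per1 window held none of the 4 motifs, which speaks only of these letters in these bases.

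The genes lie apart on the genome in GENCODE M21 (GRCm38). The activators are Arntl at chr7:113207465-113314126, Clock at chr5:76209868-76304792 and Npas2 at chr1:39193731-39363236. The repressors are Per1 at chr11:69095217-69109960, Per2 at chr1:91415982-91459324, Per3 at chr4:151003652-151044665 and Nr1d1 at chr11:98767932-98775333. The output factors are Dbp at chr7:45705088-45710203, Tef at chr15:81802421-81826863 and Hlf at chr11:90336536-90390895. All values below sum over the exons of a whole gene, without isoforms.

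Levels of whole skin are given in steps, the smallest unit of the deposited value in each library, of which every gene's value was a whole multiple, and levels of sorted cells as the deposited normalised counts. The depth, estimated from the steps, came to 24.9 M to 36.8 M reads in the knockout skin libraries, 7.37 M to 32.2 M in the P95H skin libraries, 45.9 M to 92.8 M in the sorted knockout set and 11.0 M to 17.2 M in the sorted DMBA/TPA set. Srsf2 itself was at 17560.3, 18190.2 and 20595 normalised counts in the sorted controls and at 3659, 3359 and 1900.1 in the sorted knockout cells, but in whole skin at 2879 to 2996 steps in controls, 2450 to 2790 at 4 days, 2996 to 3687 at 10 days and 2303 to 2559 at 12 days of knockout, so whole skin at 10 days was not below its controls. The summed level of 9 hair shaft and hair root genes was 2373820 to 3256470 steps in skin 10 days after knockout and 1647 to 112213 in its controls, and all 9 genes were detected. The summed level of 7 skeletal muscle genes was 212765 to 241212 steps there and 355747 to 724594 in the controls. The 4 endothelial genes were lower at 10 days too, at 3862 to 4473 steps against 7180 to 8984. At 4 days the 5 macrophage genes summed to 65358 to 121437 steps against 24511 to 37040 in controls, and the 6 fibroblast genes to 1474260 to 3088320 against 335398 to 795529, whereas the 6 adipocyte genes overlapped the controls at all 3 times. The 4 T cell genes were at 3145 to 4396 steps at 4 days, 1422 to 1942 at 10 days, 2762 to 4328 at 12 days and 2021 to 2458 in controls. At 12 days the macrophage genes, at 49403 to 62997 steps, and the fibroblast genes, at 844154 to 1831460, also lay above the controls. The part of these sums in the differences of the clock genes was not tested. The 7 keratinocyte genes were present in every table. In sorted cells they summed to 259137 normalised counts or more per library, where the 7 muscle genes summed to at most 123. In 1 sorted knockout library, replicate 2, the gene Gm26917 took 52.2% of the total, against 9.13% to 10.4% in the other 5, and differences in the sorted knockout are given with and without it. In bulk samples fewer cells of a type and less RNA per cell cannot be told apart.

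Per kilobase of exon, Nr1d1 stood highest and Per2 lowest or near the lowest among the members in control samples. In the 3 controls of the knockout skin set, Nr1d1 averaged 539 steps per kb, Tef 456, Arntl 274, Per1 249, Dbp 170.3, Per3 170.2, Clock 141, Npas2 102, Hlf 90.4 and Per2 58.8. Apart from the gap between Tef and Arntl, neighbours in this order overlapped between libraries. In sorted control cells at 10 days the order was Nr1d1 at 1475 normalised counts per kb, Per1 at 1104, Arntl at 715, Clock at 582, Hlf at 410.5, Tef at 362, Npas2 at 243, Per3 at 89.2, Dbp at 72.6 and Per2 at 21.3. Tef thus stood 2nd and Dbp 5th in these control skins, and 6th and 9th in these sorted cells. In the P95H controls at 12 days Tef was 2nd and Dbp 6th, and in the sorted DMBA/TPA controls 5th and 6th, with overlap between neighbours there. The tables were normalised separately, so only the order within each can be set side by side.

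In skin 10 days after knockout the activators were low. Npas2, the paralogue of Clock, was at 640, 420 and 412 steps in the controls and at 261, 177 and 172 at 10 days. Every knockout library lay below every control, and the means of 491 ± 129 and 203 ± 50 steps (SD, n = 3 each) differ by -1.26 ± 0.25 on the log2 scale (SE), or 2.40-fold. Arntl was at 2457, 1789 and 1947 steps in controls and at 1735, 1157 and 1161 at 10 days, again without overlap (-0.63 ± 0.19, or 1.54-fold). Clock was at 2224, 1774 and 1790 steps in controls and at 1533, 1304 and 1330 at 10 days, without overlap (-0.47 ± 0.14, or 1.38-fold).

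At the other times the 3 activators did not move as one. Arntl stayed on the low side at 12 days, with 1174, 1285 and 1727 steps, all below the controls (-0.57 ± 0.19), and so did Npas2 with 229, 346 and 404 (-0.60 ± 0.25). Clock instead was at 2914, 2182 and 2243 steps at 12 days, overlapping the controls on their upper side (0.34 ± 0.14). Thus Clock, which was lowest at 10 days, had its highest library at 12 days. At 4 days the 3 genes overlapped their controls, with Arntl at 1855, 1796 and 1716 steps, Clock at 2061, 2383 and 2236, and Npas2 at 457, 372 and 335.

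Dbp had the widest range over the knockout skins of the 10 genes. Dbp, the bZIP factor that follows the E-box rhythm most closely in many tissues, was at 377, 767 and 385 steps in the controls, at 1391, 573 and 868 at 4 days, at 114, 146 and 598 at 10 days and at 3252, 1419 and 752 at 12 days. The 10-day and 12-day libraries thus lay on opposite sides and did not overlap each other, but each overlapped the controls, and the differences from control were -1.16 ± 0.65 at 10 days and 1.65 ± 0.65 at 12 days. Without replicate 1 of the 12-day mice the latter was 1.10, and without replicate 3 of the 10-day mice the former was -1.89. Tef went the same way with a smaller range, at 3304, 4337 and 3113 steps in controls, 4544, 3495 and 3646 at 4 days, 1862, 2230 and 3393 at 10 days and 6099, 5189 and 3523 at 12 days. Its 10-day libraries also lay below all 12-day libraries, and both groups overlapped the controls.

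Hlf, the third factor of this family, did not have the high 12-day level. It was at 652, 721 and 438 steps in the controls, at 439, 387 and 278 at 4 days, at 195, 144 and 354 at 10 days and at 620, 294 and 258 at 12 days. The 10-day libraries all lay below the controls (604 ± 148 against 231 ± 109.5 steps, SD, n = 3 each; -1.45 ± 0.38, or 2.74-fold), and the difference was -0.71 ± 0.38 at both 4 and 12 days, with overlap.

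**Figure D1:**
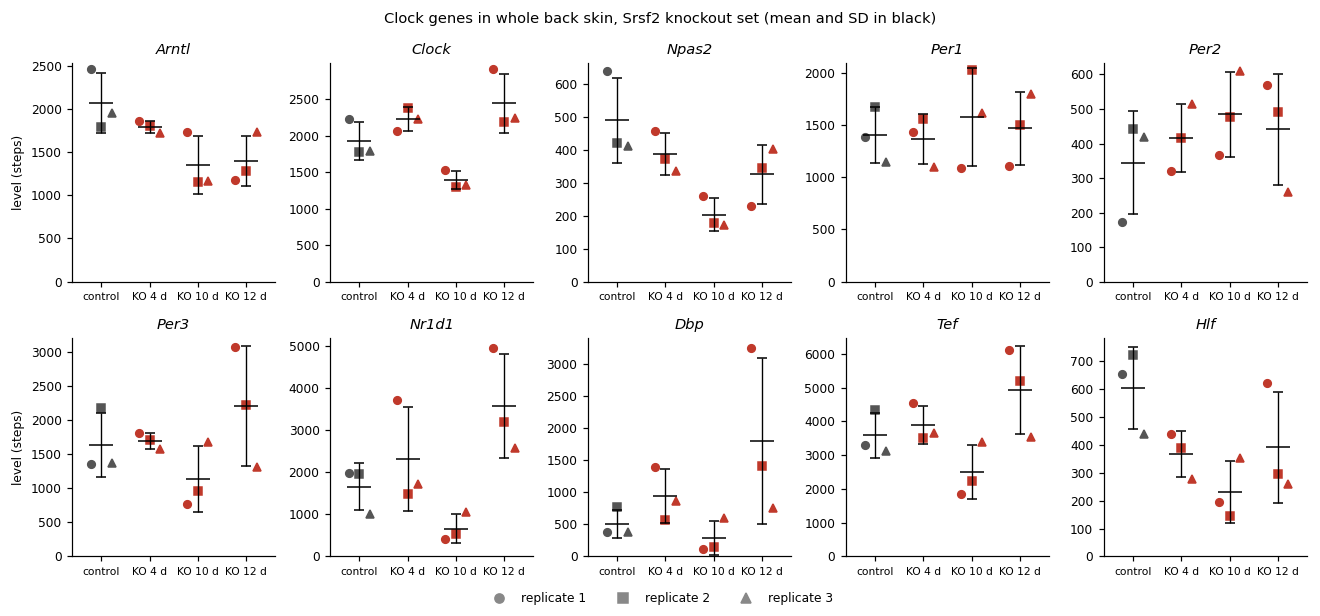
Levels of the 10 clock genes in whole back skin of the SRSF2 knockout set, 1 panel per gene, in steps on a linear vertical axis, with the control and the knockout groups at 4, 10 and 12 days along the horizontal axis. Symbols mark the 3 replicates of each group and black marks the mean and SD; Npas2, Arntl, Clock and Hlf lie below the controls in all 3 libraries at 10 days, whereas the 12-day libraries reach 3252 steps for Dbp and 4970 for Nr1d1.

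Among the repressors, Nr1d1 followed Dbp. It was at 1990, 1971 and 1017 steps in the controls, at 3733, 1485 and 1718 at 4 days, at 409, 527 and 1052 at 10 days and at 4970, 3197 and 2572 at 12 days. The 12-day libraries all lay above the controls (1.12 ± 0.43, or 2.17-fold), and of the 10-day libraries replicate 3 overlapped the lowest control (-1.38 ± 0.43, or 2.60-fold). At 12 days Nr1d1, whose product represses Arntl, was high while Arntl was low, and at 10 days both were low. The relation between the 2 genes was not tested. Per3 was at 1354, 2181 and 1370 steps in controls, 1811, 1714 and 1572 at 4 days, 767, 961 and 1688 at 10 days and 3080, 2229 and 1321 at 12 days, with overlap at each time.

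Per1 and Per2 overlapped the controls at all 3 times. Per1 ranged from 1147 to 1677 steps in controls, 1101 to 1561 at 4 days, 1089 to 2023 at 10 days and 1104 to 1797 at 12 days, and its difference of 0.14 at 10 days became -0.18 with equal library totals. Per2 ranged from 173 to 442, 319 to 515, 366 to 611 and 261 to 570 steps in the same order of groups, with differences of 0.36 ± 0.38 at 4 days, 0.58 ± 0.38 at 10 days (1.49-fold) and 0.40 ± 0.38 at 12 days. Control replicate 1 held both the lowest Per2 of the 12 libraries and the highest Arntl and Npas2.

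Of the 10 members, 5 were past an adjusted p of 0.05 in limma at 10 days, all lower (Arntl, Clock, Npas2, Nr1d1 and Hlf), where 25.3% of all tested genes were past it in either direction and 11.9% were past it and lower. Of the 10, 4 lay wholly below the controls, where 43.1% of all genes did not overlap and 21.1% lay below. At 4 days 0 of 10 were called by limma (11.3% of all genes), with 0 at an unadjusted p under 0.05 and 0 without overlap (29.4% of all genes). At 12 days 0 of 10 were called (1.28%), with 5 at an unadjusted p under 0.05, 1 wholly above the controls and 2 wholly below (22.6% of all genes without overlap, 11.8% above and 10.8% below). Nothing is read from these counts or from the calls in the fits that follow, because the members were chosen with such values known. Npas2 was called in all 6 fits that left out 1 library of the 10-day comparison, while the number called ran from 1 to 5: without knockout replicate 2, control replicate 1 or control replicate 2 Npas2 was the only one, and without knockout replicate 1 Hlf and Nr1d1 were not called. Without knockout replicate 3 Dbp and Tef were called and Arntl and Clock were not. With the values scaled as deposited, which moved the median of all genes at 10 days to 0.25 on the log2 scale, 2 members (Npas2 and Hlf) were called, and with equal totals, which moved it to -0.34, 6 were, Tef being the sixth. The high hair and low muscle sums of the same 10-day skins stand beside these differences, and their part in them was not tested.

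Within the groups of the knockout skins, Dbp, Tef, Per3 and Nr1d1 went up and down together from mouse to mouse, and Per1 did not go with them. After the group means were taken out, the log2 levels of Dbp and Tef over the 12 knockout-set libraries had a Pearson r of 0.967, those of Dbp and Per3 of 0.927, those of Per3 and Tef of 0.965 and those of Dbp and Nr1d1 of 0.852. Hlf had 0.815 with Dbp. Per1, whose promoter window holds an E-box, had -0.078 with Dbp, 0.027 with Per3, 0.059 with Tef and -0.17 with Per2, and Per2 had 0.556 with Dbp and 0.075 with Nr1d1. These values are descriptions over libraries that share their groups and normalisation. Ranked over 13721 genes with a mean of at least 50 steps, the 5 genes most like Dbp were Tef, Jam3 (0.944), Per3, Eci1 (0.922) and Trdc (0.921). Nr1d2 was at 0.913 and Cipc at 0.901. Arntl had r of 0.892 with Npas2, -0.864 with Per2, -0.794 with Per3, -0.666 with Dbp, -0.36 with Nr1d1 and -0.16 with Per1. Npas2 had -0.894 with Per2 and -0.15 with Nr1d1. The 5 genes most like Arntl were Mast4 (0.929), Zbtb43 (0.920), Slc5a11 (0.915), Pfkp (0.911) and St3gal5 (0.909).

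The values were lower for most of these pairs in the P95H skins. Over 14 libraries Dbp had r of 0.850 with Nr1d1, 0.750 with Per3, 0.707 with Tef and 0.352 with Per1, but 0.045 with Hlf. Arntl had 0.874 with Npas2, which ranked highest of all genes for it, then Cln6 (0.864), Ryr2 (0.852), Gfpt1 (0.845) and Mbnl2 (0.843), and -0.617 with Dbp. Among the 5 genes most like Dbp in this set were Brpf3 (0.858), Nr1d1, Fadd (0.828) and Ddx24 (0.802), of which Nr1d1 is a member. The 2 sorted tables (n = 6 each) differed in these values. In the DMBA/TPA cells Arntl had r of 0.987 with Npas2 and of -0.988 with Per3, where control replicate 2 held the lowest Arntl and Npas2 and the highest Per3. Dbp had 0.982 with Per1 in these cells, and the same replicate held the highest of both. In the sorted knockout set Arntl had -0.072 with Npas2, 0.949 with Per3 and 0.910 with Nr1d1, and Dbp had -0.13 with Per3 but 0.962 with Per1. Knockout replicate 2 of that set, with Gm26917 at 52.2% of its total, held the lowest Arntl of the knockout cells (2469). It also held their highest Npas2 (969), Dbp (510) and Per1 (5944), and these r values were not recomputed without it.

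**Figure D2:**
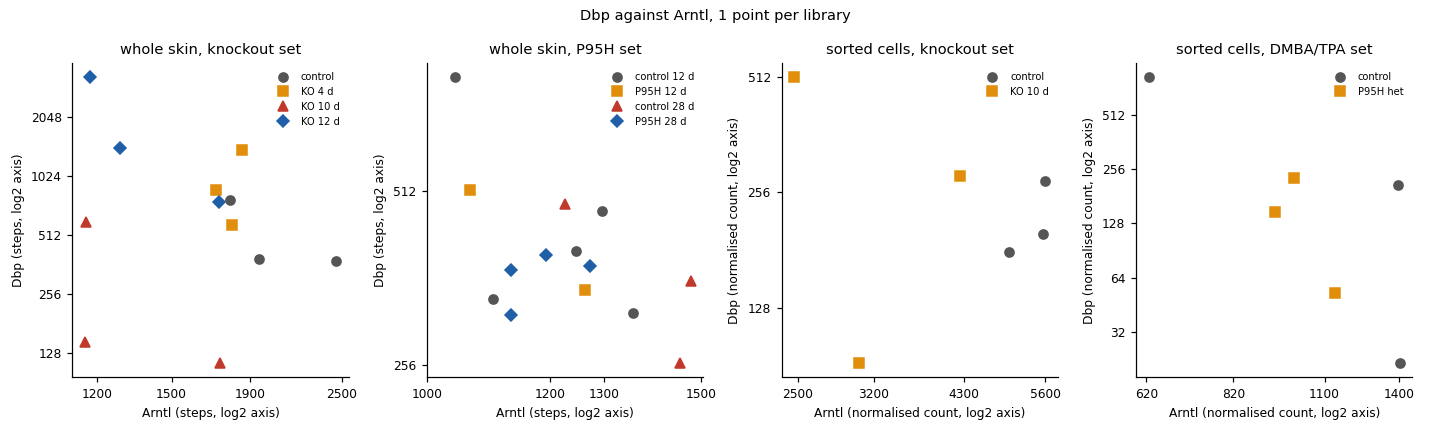
Dbp (vertical axis) against Arntl (horizontal axis) in the 4 tables, 1 panel per table and 1 point per library, both on log2-spaced axes in steps for whole skin and in normalised counts for sorted cells. Dbp spans 28.5-fold over the knockout skins and 38.4-fold over the sorted DMBA/TPA cells, where Arntl spans 2.12-fold and 2.25-fold, and the DMBA/TPA library with the highest Dbp has the lowest Arntl.

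The size of this mouse-to-mouse spread differed widely among the 10 genes. Dbp had a larger within-group SD than 96.9% of tested genes in the knockout skins, 88.1% in the P95H skins, 85.2% in the sorted knockout set and 99.9% in the sorted DMBA/TPA set. For Clock the shares were 26.5%, 19.2%, 66.4% and 9.88%. Over all 12 knockout-set skins the highest Nr1d1 library was 12.2 times the lowest, whereas in the P95H skins it was 1.81 times.

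In the P95H skins, Hlf was the member that set the mutant skins most apart at both times. At 12 days Hlf was at 982, 782, 841, 886 and 687 steps in the 5 controls and at 257 and 232 in the 2 P95H skins. At 28 days it was at 978, 693 and 870 steps in the 3 controls and at 272, 320, 378 and 310 in the 4 P95H skins. The highest P95H library (378) was thus well below the lowest control (687), with differences of -1.76 ± 0.15 at 12 days (3.39-fold) and -1.40 ± 0.14 at 28 days (2.63-fold). With the values as deposited the 28-day difference was -0.78, in a comparison whose median over all genes then lay at 0.59. The difference between the 2 times was 0.36 ± 0.21, and Hlf was not called for it.

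Per3 and Tef were lower in P95H skin without overlap at both times, by less. Per3 was at 1623, 1173, 1256, 1162 and 1118 steps in controls and 929 and 834 in P95H skin at 12 days (-0.51 ± 0.12, or 1.42-fold), and at 986, 1123 and 1002 in controls and 790, 864, 914 and 843 in P95H skin at 28 days (-0.28 ± 0.11, and 0.33 with the values as deposited). Tef was at 2834, 2257, 2545, 2201 and 2114 steps against 1732 and 1756 at 12 days (-0.45 ± 0.11, or 1.36-fold), and at 1948, 2106 and 1911 against 1495, 1766, 1886 and 1796 at 28 days (-0.20 ± 0.10, and 0.41 as deposited). The controls themselves were lower in Tef at 28 than at 12 days, without overlap (-0.26 ± 0.097).

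The activators differed from each other in the P95H skins. Npas2 was at 283, 390, 391, 469 and 269 steps in controls and 284 and 184 in P95H skin at 12 days, with overlap, and at 496, 354 and 481 in controls and 322, 246, 258 and 286 in P95H skin at 28 days, without overlap (-0.66 ± 0.20, or 1.58-fold, and -0.05 as deposited). Clock was at 2199, 2191, 2469, 2400 and 1892 steps in controls and at 2803 and 2857 in P95H skin at 12 days, higher without overlap (0.35 ± 0.10, or 1.27-fold). At 28 days Clock was at 2483, 2933 and 2877 steps in controls and 2926, 2692, 2717 and 2863 in P95H skin, nearly equal on average. The control level of Clock was higher at 28 than at 12 days, without overlap (0.31 ± 0.085, and -0.52 as deposited, where the median of all genes lay at -0.82). Arntl overlapped at both times, at 1042 to 1357 steps in controls against 1065 and 1263 at 12 days, and at 1226 to 1479 against 1133 to 1273 at 28 days (-0.23, and 0.39 as deposited).

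Dbp, Nr1d1, Per1 and Per2 overlapped between P95H and control skins at both times. Dbp was at 314 to 805 steps in the 12-day controls and at 345 and 513 in P95H skin, and at 258 to 486 and 312 to 396 at 28 days. Nr1d1 was at 1286 to 2117 steps against 1231 and 1287 at 12 days, and at 1169 to 2021 against 1294 to 1798 at 28 days (-0.05, and 0.56 as deposited). Per1 was at 882 to 2010 steps against 788 and 986 at 12 days, and at 1094 to 1404 against 848 to 1526 at 28 days (-0.20, and 0.41 as deposited). Per2 was at 176 to 334 steps against 136 and 179 at 12 days, and at 156 to 203 against 149 to 245 at 28 days.

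**Figure D3:**
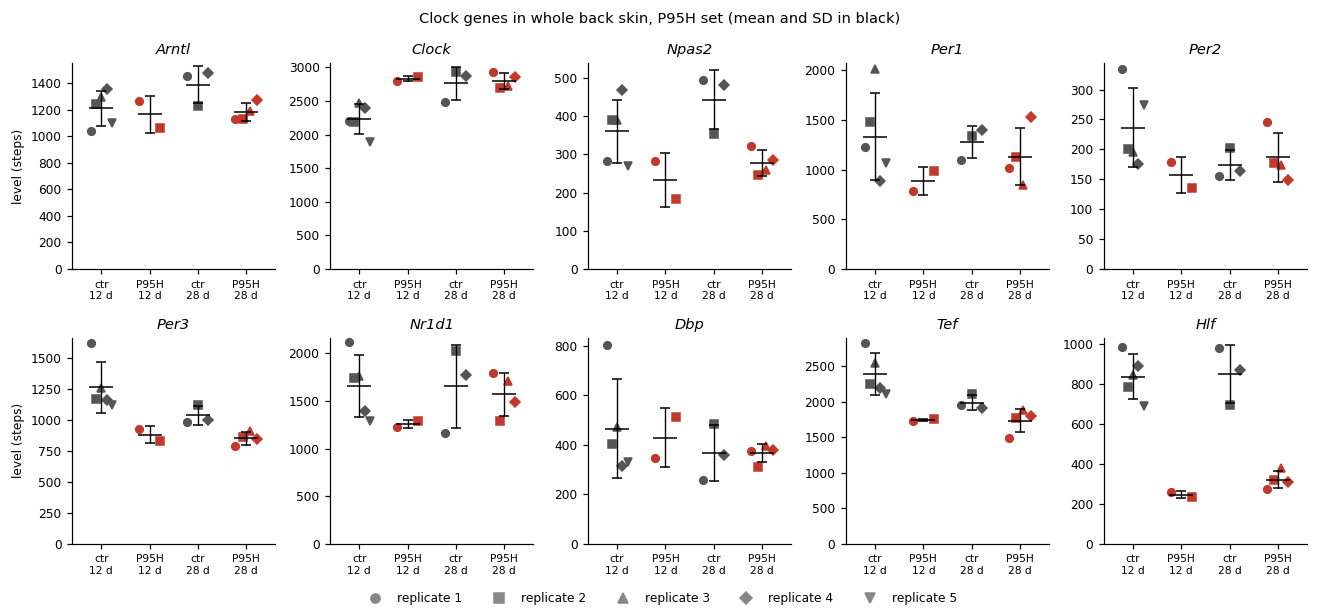
Levels of the 10 clock genes in whole back skin of the P95H set, 1 panel per gene, in steps on a linear vertical axis, for control and P95H mice at 12 and 28 days along the horizontal axis. Symbols are libraries and black marks the mean and SD; in the Hlf panel the 6 P95H libraries lie between 232 and 378 and the 8 controls between 687 and 982.

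At 12 days 4 of the 10 members were past an adjusted p of 0.05 in limma, Clock higher and Per3, Tef and Hlf lower, beside 6.93% of all genes, of which 3.96% higher and 2.97% lower. The same 4 did not overlap, beside 27.8% of all genes, of which 13.7% above and 14.0% below. At 28 days 2 were, Npas2 and Hlf, both lower, beside 12.2% of all genes and 5.46% lower, and 4 lay wholly below the controls, beside 28.6% of all genes without overlap and 14.1% below. For the change of the P95H difference between the times 0 of 10 were called by limma (0.0109% of all genes), with 1 at an unadjusted p under 0.05. For control skin at 28 against 12 days 0 of 10 were (0.00546%), with 3 at an unadjusted p under 0.05, and Clock lay wholly above and Tef wholly below (10.8% of all genes without overlap, 5.8% above and 4.96% below). As above, the counts, and the calls in the fits that follow, are a description of genes already chosen on these values. Hlf was called in all 7 fits that left out 1 library at 12 days and in all 7 at 28 days. At 12 days, without either P95H library, and with the values as deposited or only the compared groups fitted, it was the only member called, and at 28 days Npas2 was lost in 5 of the 7 fits. With the values as deposited 0 members were called at 28 days. With the replicate block Clock and Tef were not called at 12 days, leaving 2.

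Some sums of cell type genes also differed from the controls in these skins. The 7 skeletal muscle genes summed to 128680 and 140267 steps in P95H skin and to 185475 to 218306 in controls at 12 days, but to 121015 to 191454 and 155136 to 171630 at 28 days, where the groups overlapped. The 7 keratinocyte genes summed to 187819 and 274298 steps against 130569 to 171540 at 12 days and to 245360 to 305226 against 188238 to 219611 at 28 days, above the controls at both times. The 4 endothelial genes overlapped at 12 days and summed to 2705 to 3453 steps against 3987 to 4272 at 28 days, below the controls. In the sorted knockout set, the muscle genes summed to 67.5 to 123 normalised counts per library. The part of any of these sums in the Hlf differences was not tested.

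In cells sorted 10 days after knockout, Hlf was again the member with the largest difference. It was at 1925, 3464 and 2838 normalised counts in controls and at 338, 565 and 1781 in knockout cells, all below the controls, with means of 2743 ± 774 and 895 ± 776 (SD, n = 3 each) and a difference of -1.93 ± 0.57, or 3.81-fold. Without knockout replicate 2 it was -1.78. Replicate 3 of the knockout cells lay just below the lowest control.

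Arntl, Npas2 and Per3 were also below the controls in all 3 sorted knockout libraries. Arntl was at 4976, 5561 and 5599 normalised counts in controls and at 3054, 2469 and 4241 in knockout cells (-0.76 ± 0.24, and -0.58 without replicate 2). Npas2 was at 1082, 1286 and 1131 against 414, 969 and 791 (-0.77 ± 0.33, and -1.02 without replicate 2). Per3 was at 860.1, 890.0 and 822 against 512, 442 and 745 (-0.63 ± 0.26, and -0.47 without replicate 2). These 4 lower genes are the 10-day whole-skin set with Per3 in place of Clock.

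The remaining members overlapped. Clock was at 7341, 7486 and 9147 normalised counts in controls and at 8793, 3119 and 7678 in knockout cells, so that its difference of -0.42 became 0.05 without replicate 2. Dbp was at 179, 199 and 274 against 92.4, 510.2 and 282, and its difference of 0.15 ± 0.59 was -0.40 without replicate 2 and -0.20 with equal totals. Nr1d1 was at 3029, 4221 and 6369 against 1624, 1377 and 4393 (-1.02 ± 0.47, and -0.70 without replicate 2). Tef was at 2702, 2981 and 2856 against 1381, 2123 and 3119 (-0.44, and -0.45 without it), and Per1 at 5313, 6914 and 6428 against 2401, 5944 and 4217 (-0.66, and -0.96 without it). Per2 was low in all 6 libraries, at 103, 133 and 139 against 72.5, 106 and 119 (-0.35, and -0.41 without it). With limma 0 of 10 members passed an adjusted p of 0.05 (3 at an unadjusted p under 0.05, and 0 called by edgeR), beside 0.0394% of all genes. Wholly below the controls lay 4 of 10, beside 28.6% of all genes without overlap and 15.8% below.

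In the sorted DMBA/TPA cells, 1 control mouse differed from the other 5 in most clock members. Control replicate 2 had Dbp at 828 normalised counts, Per2 at 431, Per3 at 1034, Tef at 2051 and Hlf at 896, each the highest of the 6 libraries, and Arntl at 624.5 and Npas2 at 54.8, each the lowest. The other 2 controls had Dbp at 209 and 21.5, Per3 at 230.1 and 184, Tef at 713 and 363, Hlf at 496 and 365, Arntl at 1393 and 1402 and Npas2 at 168 and 209. The heterozygous P95H cells had Dbp at 229, 148 and 52.3, Per3 at 312, 305 and 254, Tef at 701, 716 and 516, Hlf at 428, 367 and 385, Arntl at 998, 937 and 1139 and Npas2 at 137, 128 and 157. They lay inside the span of the controls for these 6 genes.

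Of the other members, Per1 was likewise highest and Clock lowest in control replicate 2, whereas Nr1d1 was highest in another control. Clock was at 2235, 2027 and 2338 normalised counts in controls and at 2203, 2091 and 2138 in P95H cells, a 1.15-fold span. Per1 was at 3999.7, 5899 and 2718 against 3215, 2799 and 2054, and Nr1d1 at 5245, 4769 and 1659.7 against 4409, 2835 and 847. The lowest library of both was P95H replicate 3, below all controls, and the highest Nr1d1 was in control replicate 1. Per2 was at 101 and 48.3 in the other 2 controls against 61.6, 50.2 and 54.8. The Hlf difference was -0.47 ± 0.26, and -0.12 without control replicate 2. The Dbp difference went from -0.37 ± 1.07 to 0.83 without that mouse, that of Per3 from -0.29 to 0.49, that of Tef from -0.34 to 0.33 and that of Npas2 from 0.17 to -0.42. The differences of Arntl (-0.07) and Clock (-0.03) were 0.04 and 0.07 with equal totals, which moved the median of all genes to 0.09. With limma 0 of 10 members were called (1 at an unadjusted p under 0.05, and 0 called by edgeR), beside 0.0% of all genes, of which 2376 had an unadjusted p under 0.05 and 1 was called by edgeR, and 0 of 10 were without overlap (21.5% of all genes).

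**Figure D4:**
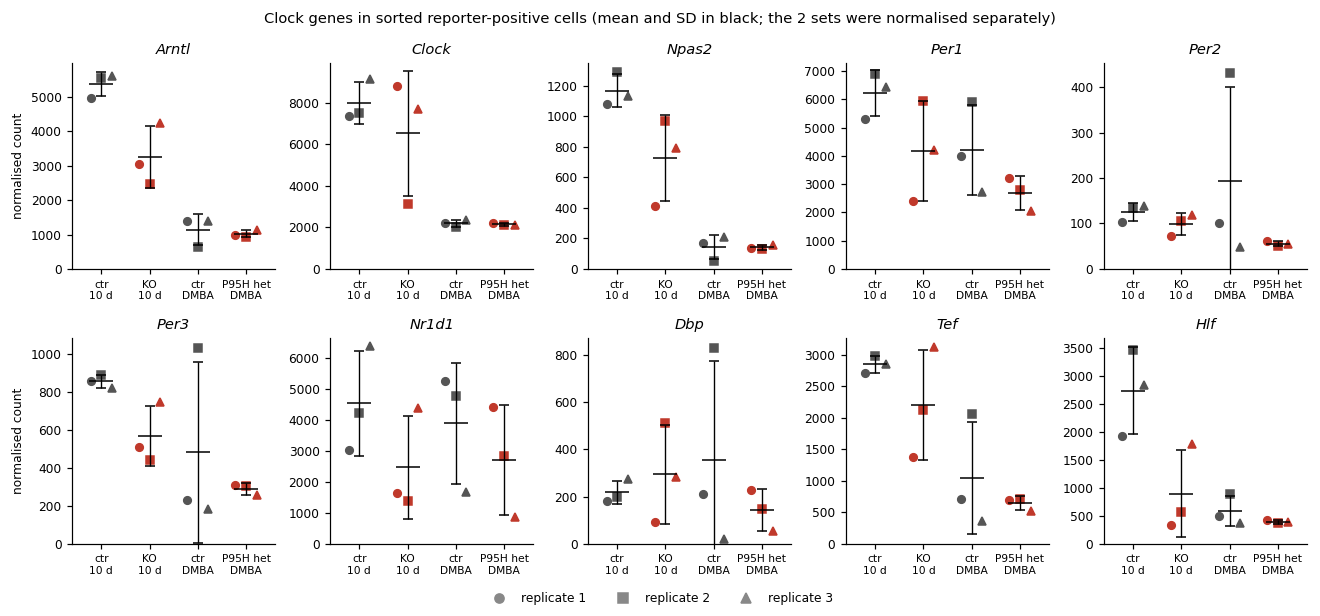
Levels of the 10 clock genes in sorted reporter-positive cells, 1 panel per gene, in normalised counts on the vertical axis, for control and knockout cells at 10 days and for control and heterozygous P95H cells after DMBA/TPA along the horizontal axis. Symbols are the 3 libraries of each group and black marks the mean and SD; Hlf lies between 338 and 1781 in knockout cells and between 1925 and 3464 in their controls, and 1 DMBA/TPA control has the highest Dbp, Per1, Per2, Per3, Tef and Hlf of its table.

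The balance of the loop was summarised per library as the mean log2 level of the 7 repressor and output members less that of the 3 activators. In the knockout set it was -0.73, 0.28 and -0.39 in controls, 0.18, -0.17 and -0.06 at 4 days, -0.91, -0.14 and 0.68 at 10 days and 1.10, 0.52 and -0.20 at 12 days, so that every knockout group overlapped the controls. Its SD was largest at 10 days, at 0.80, against 0.65 at 12 days, 0.52 in controls and 0.18 at 4 days. The 10-day difference was 0.16, and -0.24 without knockout replicate 3. In the P95H set it was 0.44 to -0.59 in the 12-day controls and -0.76 and -0.44 in P95H skin, and -0.76 to -0.29 in the 28-day controls and -0.63 to -0.48 in P95H skin. In the DMBA/TPA cells control replicate 2 was at 1.88, and the other 5 libraries between -1.68 and -0.24.

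**Figure D5:**
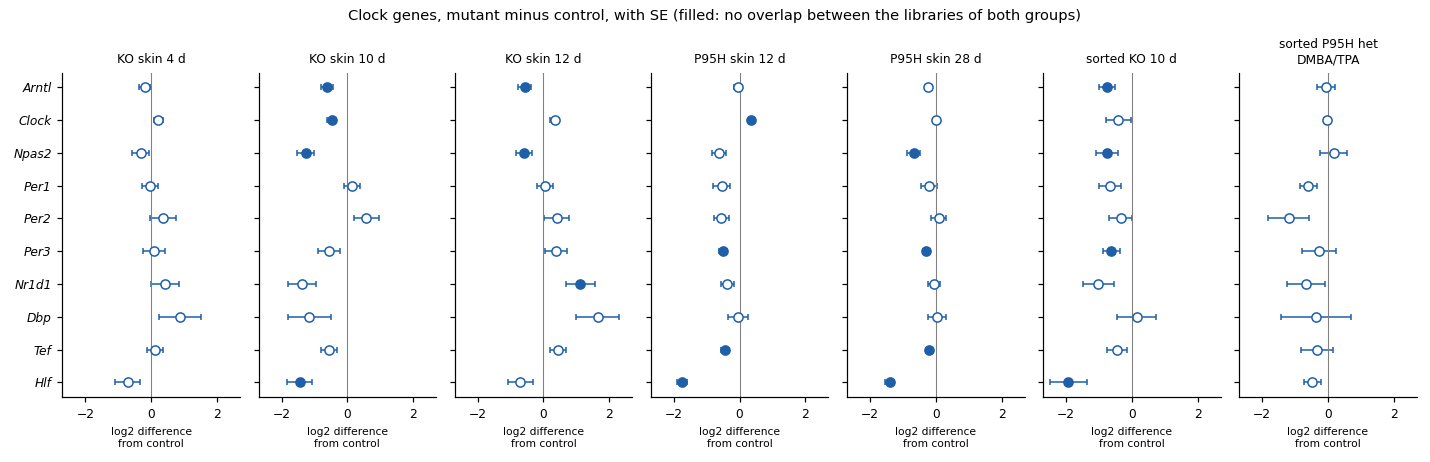
Log2 differences of the 10 members in 7 comparisons, 1 panel per comparison, with the SE as bars, filled points where the 2 groups do not overlap and open points where they do. Hlf lies below 0 in all 7 panels and is filled in 4 of them, at -1.45 for knockout skin at 10 days, -1.76 and -1.40 for P95H skin and -1.93 for sorted knockout cells.

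A list of 20 other clock genes held changes in both directions. Like the glucocorticoid-induced genes further below, it was chosen with earlier results of these data known. Its calls and adjusted p-values are therefore no independent test. In skin 10 days after knockout 5 rose and 3 fell, beside 25.3% of all genes called, of which 11.9% lower. The list median was 0.17 on the log2 scale beside -0.021 for all genes. Noct, a rhythmic phosphatase of the nicotinamide cofactors, rose from 486 to 922 steps in controls to 1470 to 2381 (1.52 ± 0.26, limma adjusted p = 0.00509), and Bhlhe40, a repressor that competes for E-boxes, rose from 1188 to 1461 to 1935 to 2405 (0.72 ± 0.12, adjusted p = 0.00526). The kinase gene Csnk1e, whose product phosphorylates PER proteins, rose by 0.92 ± 0.19 (adjusted p = 0.00955). Nfil3, which represses through the D-box (0.84 ± 0.27, adjusted p = 0.0410), and Timeless (0.82 ± 0.27, adjusted p = 0.0426) also rose. The nuclear receptor gene Rora, whose product activates Arntl, fell from 5114 to 7013 to 2969 to 3894 steps (-0.77 ± 0.17, adjusted p = 0.0124), as did Btrc (-0.51 ± 0.14, adjusted p = 0.0225) and Cry2 (-0.50 ± 0.16, adjusted p = 0.0381). Noct, Bhlhe40 and Csnk1e kept their calls in all 6 fits without 1 library and Rora in 5. Btrc and Cry2 kept theirs in 2 and Nfil3 and Timeless in 1, so that the list's calls were 5 without knockout replicate 1, 4 without knockout replicate 2, 4 without control replicate 1 and 3 without control replicate 2.

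The remaining E-box genes of the list did not pass the test at 10 days. Cry1, a repressor that acts with the PER proteins, was at 445 to 518 steps against 261 to 367 in controls (0.57 ± 0.21, limma adjusted p = 0.0637). Nr1d2, the paralogue of Nr1d1, was at 346 to 818 against 630 to 1042 at 10 days (-0.82, adjusted p = 0.127) and at 1184 to 3055 at 12 days, all above the controls (1.06 ± 0.37, adjusted p = 0.156). Ciart, a repressor of the ARNTL and CLOCK pair, ranged from 58 to 104 steps in controls and from 77 to 179 over the 9 knockout skins. At 4 days Usp2 fell, from 1576 to 1711 to 1076 to 1117 steps (-0.59 ± 0.10, adjusted p = 0.00882), in all 6 fits without 1 library, and it was the only gene of the 20 called then (11.3% of all genes). At 12 days Arntl2, the paralogue of Arntl, rose from 391 to 456 to 717 to 786 steps (0.88 ± 0.12, adjusted p = 0.00692), in all 6 such fits, while Arntl itself was below its controls.

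In the P95H skins Bhlhe40 rose at both times. It went from 883 to 1059 steps in controls to 1216 and 1662 at 12 days (0.55 ± 0.12, limma adjusted p = 0.0147) and from 1011 to 1136 to 1254 to 1669 at 28 days (0.44 ± 0.11, adjusted p = 0.0221). Arntl2 rose at 12 days, from 293 to 419 steps to 499 and 659 (0.65 ± 0.14, adjusted p = 0.0108). At 28 days Timeless rose (0.64 ± 0.15, adjusted p = 0.0160). That makes 2 higher and 0 lower of 20 at each time, beside 6.93% of all genes called at 12 days and 12.2% at 28 days. Both calls at 12 days were lost without P95H replicate 2 (adjusted p = 0.242 for Arntl2 and 0.312 for Bhlhe40). At 28 days Timeless kept its call in 5 of the 7 fits without 1 library and Bhlhe40 in 3. The list then had 1 call without P95H replicate 2, P95H replicate 4 or control replicate 1, and 0 without control replicate 4. Cry2 at 12 days (-0.28, adjusted p = 0.0898) and Cry1, Nr1d2 and Ciart at both times did not pass the test, and 0 of 20 changed their P95H difference between the times (0 at an unadjusted p under 0.05 in limma).

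In the sorted cells 0 of the 19 tested genes of the list passed in either comparison in limma, with 6 at an unadjusted p under 0.05 in the knockout and 7 in the DMBA/TPA comparison. Of all genes 0.0394% passed in the knockout and 0.0% in the DMBA/TPA comparison. In knockout cells Nr1d2 was at 1650.5 to 4349 normalised counts against 5477 to 7798 (-1.37 ± 0.36, adjusted p = 0.168, and -1.06 with 0.0831 without knockout replicate 2) and Bhlhe40 at 8239 to 9062 against 14941 to 28174 (-1.11 ± 0.27, adjusted p = 0.149, and -1.07 with 0.0769 without it), each without overlap. For Bhlhe40 that sign is opposite to the rise in whole skin at 10 days, a difference that was not tested. Cry1 was lower without overlap in the P95H cells after DMBA/TPA, at 278 to 457 against 501 to 557 (-0.60 ± 0.16, adjusted p = 0.174).

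Per genes, Per1 above all, also respond to glucocorticoids, so a list of 8 glucocorticoid-induced genes was read beside them. In P95H skin 2 of the 8 were called lower at each time and 0 higher. Of all genes 6.93% were called at 12 days (2.97% lower) and 12.2% at 28 days (5.46% lower). The list was mixed, with 3 of 8 differences positive at 12 days and 4 of 8 at 28 days. The 2 called genes, named after their values were seen, were Tsc22d3, the gene of the anti-inflammatory protein GILZ (-0.55 ± 0.14 with limma adjusted p = 0.0309 at 12 days and -0.64 ± 0.13 with 0.00722 at 28 days), and Zbtb16 (-0.77 ± 0.17 with 0.0118 and -0.74 ± 0.15 with 0.00759). The list summed to 7528 to 7889 steps against 8184 to 9708 at 12 days and to 7103 to 7567 against 8490 to 8973 at 28 days, below the controls at both times. Per1 overlapped the controls at both times (-0.54 and -0.20), as did Per2 (-0.55 and 0.09), whereas Hlf, Per3 and Tef lay below them. The list also lay below the controls in knockout skin at 12 days, at 11971 to 12535 against 13422 to 15841, and in sorted knockout cells, at 39710 to 51127 normalised counts against 53444 to 79948. Per1 overlapped its controls in both (0.05 and -0.66). In knockout skin at 10 days 3 of the 8 rose and 3 fell, beside 25.3% of all genes called. In the other comparisons with control 0 were called by limma (1 at an unadjusted p under 0.05 at 4 days, 3 at 12 days, 1 in sorted knockout and 0 in DMBA/TPA cells). The part of this list in the differences of the clock genes was not tested.

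Across all genes, the fits behind these values called 1403 higher and 802 lower in knockout skin at 4 days, 2593 and 2320 at 10 days, 160 and 89 at 12 days, and 726 and 543 in P95H skin at 12 days and 1227 and 999 at 28 days. With the values as deposited the splits were 406 and 347, 3389 and 551, 93 and 18, 97 and 111, and 617 and 15 in the same order, and with equal totals 1060 and 1035 at 4 days, 1212 and 6806 at 10 days and, in P95H skin at 28 days, 1042 and 1235. Each difference of a member is therefore to be read against the median of its comparison, which lay within 0.04 of 0 on the log2 scale for the values used here.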

How the data were processed

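RNA-seq libraries of 38 mouse samples, labelled as biological replicates, were analysed from 4 gene tables. Per the submitters' processing notes STAR, featureCounts and DESeq2 were used, with no version, role or genome build given. The deposited signal is, per the file names, a normalised count per gene. Library kits differed between the 2 whole-skin sets, so no level was set across tables. Of all deposited values, 100% were whole multiples (tolerance 0.0001) of 1 step per library. In the sorted tables these steps are reads. In whole skin the steps, with undetected genes at 1 step, had like medians across libraries (log2 shift -0.023 to 0.020 and -0.011 to 0.0086), whereas the deposited values differed by a further factor per library (-0.26 to 0.52 and -0.98 to 1.22). The steps were therefore analysed there, which departs from the planned use of normalised counts, and the deposited values were run as an alternative.

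Genes with a mean of at least 10 were tested (19450 in knockout skin, 18311 in P95H skin, 17744 and 14914 in sorted cells) on log2(value + 1) with limma 3.58.1 (R 4.3.3), trended variance, 1 coefficient per group and Benjamini-Hochberg adjustment at 0.05. Differences are on the log2(value + 1) scale, which understates those of low genes. The script was tested on simulated data. edgeR 4.0.16 on the recovered reads of the sorted tables was added after the data were seen and called 3 genes in the knockout and 1 in the DMBA/TPA comparison. Likeness is the Pearson r of log2 levels after group means were removed. The members and lists were chosen with earlier results of these data known. Named beside the 10 members were: the other clock genes past the threshold, up to 6 with the smallest p per comparison; Cry1, Cry2, Nr1d2 and Ciart; the 5 genes most like Arntl and Dbp in each whole-skin table (mean at least 50, no predicted gene names); and Srsf2. At 10 days of knockout 2 more than 6 genes passed, and all 8 are named for completeness. A few results on other genes are not reported here. Alternatives were the deposited scaling, equal totals, a pseudocount of 5, no filter, only the groups compared, a replicate block and each library left out. No 2 libraries of a group agreed within counting noise. Marker lists for adipocytes, fibroblasts, endothelial cells, macrophages and T cells were summed too.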

Additional observations from a re-analysis of the deposited data

Results flagged for a closer look

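Among the groups of 4 or 5 libraries, 62 were checked for a library far from the others in 1 gene, and 3 were found, where chance gives about 1 in 20. None was one of the 10 members. In the P95H controls at 12 days, Cry2 was at 1138 steps in replicate 1 and at 955 to 959 in the other 4, the same mouse that had the highest Dbp (805), Tef (2834), Per3 (1623) and Nr1d1 (2117) of its group. Csnk1d, whose product phosphorylates PER proteins, was at 2659 steps in replicate 5 of the same group and at 2289 to 2370 in the others. In P95H skin at 28 days Cipc, the gene of a CLOCK-binding repressor, was at 1272 steps in replicate 1 and at 1435 to 1468 in the other 3.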

How the results depend on the processing

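Of the members' differences, 498 recomputed values moved by less than the SD between replicates and 42 by more; of the other named clock genes' values 346 kept their direction and side of the threshold, 26 fell out of it and 4 came into it. The number of other clock genes called moved by over 1.5 times with the values as deposited, to 0 from 1 in knockout skin at 4 days and at 12 days, and to 0 from 2 in P95H skin at 12 and at 28 days. With only the groups compared it moved to 4 in P95H skin at 28 days, and with no filter to 5 from 8 in knockout skin at 10 days and to 1 from 0 in DMBA/TPA cells. Leaving out 1 library gave 1 at 4 days, 3 to 8 at 10 days, 1 at 12 days, 0 to 2 and 0 to 3 in P95H skin, 0 for the change between times, the controls and the sorted knockout, and 0 to 2 in DMBA/TPA cells (2 without P95H replicate 1). The balance of the loop ran without 1 library from 0.035 to 0.54 at 4 days, -0.24 to 0.55 at 10 days, 0.44 to 1.09 at 12 days, -0.66 to -0.34 and -0.097 to 0.14 in P95H skin, -0.22 to 0.25 in sorted knockout cells and -1.39 to 0.385 in DMBA/TPA cells.

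Over all genes, the calls with the values as deposited were 753 of 2205 at 4 days, 111 of 249 at 12 days, 208 of 1269 and 632 of 2226 in P95H skin, 75 against 2 for the change between times and 441 against 1 between controls. With equal totals they were 8018 of 4913 at 10 days, and 0 of 7 and 1 of 0 in sorted cells. With only the groups compared they were 764 at 4 days, 111 at 12 days and 1436 in P95H skin at 28 days. With no filter they were 73 in DMBA/TPA cells, 1 for the change between times and 0 between controls, and with a pseudocount of 5, 2 between controls. edgeR gave 3 and 1 in sorted cells. Without 1 library they ran from 295 to 2585, 1424 to 4869 and 43 to 144 in knockout skin, 323 to 1438 and 699 to 2442 with P95H, and 0 to 407 and 0 to 114 in the sorted tables. The cause of these shifts was not tested. In whole skin same-numbered libraries did not all deviate together (r from -0.46 to 0.84 over pairs). In the sorted sets their r was positive in every pair, at 0.058 to 0.19 for the knockout and 0.056 to 0.15 after DMBA/TPA. Differently numbered libraries there had r of -0.16 to -0.0053 and of -0.14 to 0.024. Whether the numbers pair the sorted samples is therefore not settled, and the main fits hold no pairing. With the replicate block 2 other clock genes were called in DMBA/TPA cells, and over all genes 786 at 12 days of P95H, 0 and 113 for the sorted tables, 1 for the change between times and 0 between controls. At the lowest depth, 7.37 M reads, all 10 members were above the filter.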
